A study of Mus musculus with 160 samples.

Results

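Of the 39179 genes counted in the distal colon of 160 mice, 10 genes of MHC class II antigen presentation were followed across 4 knockout lines and their wild-type controls. They were taken by name and matched to the Ensembl identifiers of the count files. Earlier results of these data were known when they were chosen. All 10 were present in the files, and all 10 had enough counts to be tested in every comparison. They comprise the chains of the peptide-presenting molecules (*H2-Aa*, *H2-Ab1* and *H2-Eb1*), the invariant chain *Cd74*, the peptide-editing molecule H2-DM (*H2-DMa*, *H2-DMb1* and *H2-DMb2*), its inhibitor H2-O (*H2-Oa* and *H2-Ob*) and the transcriptional coactivator *Ciita*. For *H2-Eb1*, presenting chain is used as a family name only, because the gene of its alpha partner, *H2-Ea-ps*, was hardly counted in these mice.

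RNA sequencing was done on whole distal colon tissue of mice that lacked *Nckap1l* (labelled HEM1), *Dock2*, *Gpsm3* or *Dok3* and of wild-type littermates from crosses of heterozygous parents. The *Nckap1l*, *Dock2* and *Gpsm3* lines were labelled C57BL6/J and the *Dok3* line 129. Dextran sulfate sodium (DSS), which injures the colonic epithelium, was in the drinking water for 5 days and was followed by water alone, and the tissue was taken at day 10, or at day 12 for *Nckap1l*. The labels give 3% DSS for the *Dock2* and *Gpsm3* lines, 3.5% for the *Dok3* line and no dose for the *Nckap1l* line. The study's methods name a dose slightly below 3% for *Nckap1l*-/- mice. For *Dok3*-/- mice they name 3% in a first round of experiments and 3.5% after it. The groups held 16 *Nckap1l*-/- and 15 wild-type mice, 18 *Dock2*-/- and 24 wild-type mice, 20 *Gpsm3*-/- and 20 wild-type mice, and 26 *Dok3*-/- and 21 wild-type mice. Females were 4 of the *Nckap1l*-/- and 8 of their wild-type mice, and 8 of the *Dock2*-/- and 12 of their wild-type mice. All other mice were labelled male. Treated and untreated mice were sequenced according to the study's methods, but which mouse received DSS is not given in the sources used here, so each group pools both.

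MHC class II molecules are pairs of an alpha and a beta chain that carry peptides from the endosome to the cell surface, where CD4 T cells read them. The invariant chain holds the groove closed until H2-DM exchanges its last fragment for a peptide, and H2-O, found mainly in B cells, holds H2-DM back. Dendritic cells, macrophages and B cells express the pathway constitutively, whereas gut epithelium and other cells turn it on through *Ciita* when they meet interferon-gamma.

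The named genes other than *Cd74* and *Ciita* lie in the MHC on mouse chromosome 17 (GRCm38), in the same region as *Gpsm3* (chr17:34589806-34591754, plus strand), the gene deleted in 1 of the 4 lines. *H2-Oa* (ENSMUSG00000024334, chr17:34092340-34095234) was the farthest from it, 495 kb away, and *H2-Eb1* (ENSMUSG00000060586, chr17:34305867-34316674) the nearest, 273 kb away. Between them lie *H2-DMa* (ENSMUSG00000037649, chr17:34119541-34139101), *H2-DMb2* (ENSMUSG00000037548, chr17:34143307-34151555), *H2-DMb1* (ENSMUSG00000079547, chr17:34153072-34160230), *H2-Ob* (ENSMUSG00000041538, chr17:34238903-34254414) and *H2-Ab1* (ENSMUSG00000073421, chr17:34257689-34269419). *H2-Aa* (ENSMUSG00000036594, chr17:34282744-34287823) is the only one of these on the minus strand. *Ciita* (ENSMUSG00000022504) lies at chr16:10480059-10528418, and *Cd74* (ENSMUSG00000024610) on another chromosome.

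Class II genes share a promoter module in which an X box, bound by RFX and CREB-family factors, stands before a Y box, an inverted CCAAT element bound by NF-Y, and *Ciita* is recruited to the complex. The stretches printed here are shown because *H2-DMb1* and *H2-DMb2*, neighbouring copies with almost the same module, differed in how they varied between mice, as described further on. They come from RefSeq promoters on GRCm38.p6, each 300 bases long with 250 bases before the gene's start, and each printed stretch is 60 bases on the gene's own strand. Their positions are chr17:34287859-34287918 for *H2-Aa* on the minus strand and, on the plus strand, chr17:34305761-34305820 for *H2-Eb1*, chr17:34153083-34153142 for *H2-DMb1*, chr17:34145112-34145171 for *H2-DMb2*, chr17:34092289-34092348 for *H2-Oa* and chr17:34238801-34238860 for *H2-Ob*. Capitals mark TGATTGG, which holds the inverted CCAAT, and, where present 10 to 30 bases before it, the pieces AAC and TGANG that stand 3 bases apart in an X box.
H2-Aa: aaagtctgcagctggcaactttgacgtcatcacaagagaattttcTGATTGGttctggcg
H2-Eb1: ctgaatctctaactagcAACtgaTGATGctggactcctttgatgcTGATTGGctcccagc
H2-DMb1: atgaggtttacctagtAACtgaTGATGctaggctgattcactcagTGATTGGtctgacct
H2-DMb2: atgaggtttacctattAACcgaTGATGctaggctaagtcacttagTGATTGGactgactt
H2-Oa: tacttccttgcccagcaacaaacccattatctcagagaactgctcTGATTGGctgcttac
H2-Ob: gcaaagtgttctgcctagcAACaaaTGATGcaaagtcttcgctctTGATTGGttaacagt
TGATTGG was found in 6 of the 7 named genes with a RefSeq promoter, and among 32851 mouse promoters searched on both strands it occurred in 7.817%. AAC, any 3 bases and TGANG occurred in 2.883% of promoters. Both pieces in this order and spacing occurred in 7 promoters, or 0.02131%, of which 4 were *H2-DMb1*, *H2-DMb2*, *H2-Eb1* and *H2-Ob*. The letters searched were chosen after these promoters had been read, and the windows for *H2-DMa* held neither piece. A match of letters is a description and not a measured binding site.

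Total counts per library were 4344988 to 19993833 with a median of 15989625.5, so that 3 counts, the level that a count of 0 still allows, corresponded to 0.150 to 0.690 CPM, that is counts per 1000000 of the library. RNA of squamous skin was over 1000 summed CPM of marker genes in 31 libraries and RNA of striated muscle in 21, and these were unevenly spread, with skin in 7 of the wild-type and 7 of the knockout libraries of the *Nckap1l* line against 4 and 1 in the *Dock2* line. Sex markers went against the label in 5 Dok3-line libraries, and 1 wild-type library of the *Nckap1l* line stood apart with 469 CPM of B cell markers, against 197 in the next highest of its group. The targeted genes were still counted in the knockouts: *Gpsm3* was at 0.731 to 7.90 CPM (median 3.15) in its wild-type mice and 0.238 to 3.47 (median 0.556) in *Gpsm3*-/- mice, and 5 of 20 knockouts lay at or above the lowest wild-type mouse. In the *Nckap1l* line the median of *Nckap1l* was 27.6 CPM in wild-type and 14.8 in the libraries labelled knockout, of which 8 of 16 lay within the wild-type range. *Dock2* had medians of 35.7 and 22.4 CPM with 15 of 18 labelled knockouts in or above the wild-type range, and *Dok3* medians of 3.67 and 3.30 CPM with 22 of 26. Counts over a whole gene do not show which exons were removed, so genotypes are used here as labelled. The colon contained the cell types that express the pathway: all 10 B cell markers, all 10 macrophage markers and all 9 dendritic cell markers had a median over 0 in every group.

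Divided by exon length, the invariant chain was the most abundant transcript, with a median over all mice of 162 CPM per kb. The presenting chains followed at 50.4 CPM per kb for *H2-Eb1*, 38.9 for *H2-Ab1* and 37.9 for *H2-Aa*. The H2-DM genes came next, at 6.35 CPM per kb for *H2-DMb1*, 4.22 for *H2-DMb2* and 2.93 for *H2-DMa*, and then *Ciita* at 2.58, *H2-Ob* at 1.63 and *H2-Oa* at 0.794. The spread between mice was widest for *H2-DMb2* and the inhibitor genes. Across the 160 libraries the highest CPM was 10.2 times the lowest for *H2-Eb1*, 12.3 times for *H2-Aa*, 13.3 times for *H2-Ab1* and 18.8 times for *Cd74*, but 39.1 times for *H2-DMb2* and 127 times for *H2-Ob*. *H2-Oa* was at 0 counts in 1 mouse, and its lower values lie under the level of 3 counts.

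**Figure D1:**
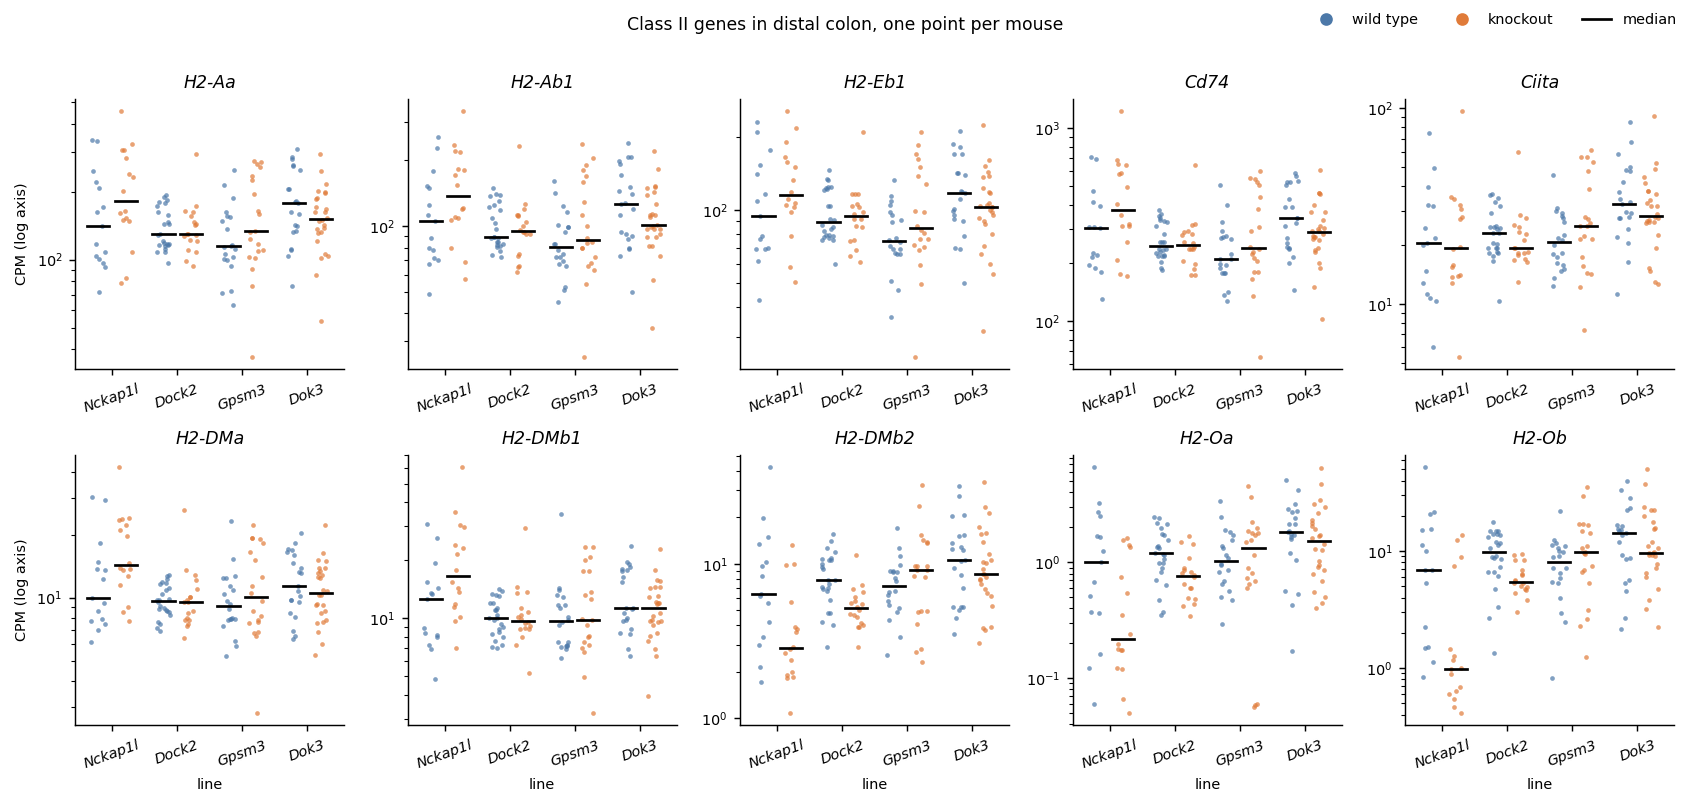
Level of each of the 10 genes in CPM (log axis) by line and genotype; each point is 1 mouse, wild type in blue and knockout in orange, the black line is the group median, and a count of 0 is drawn at 0.05 CPM. The points of the H2-DMb2, H2-Oa and H2-Ob panels spread far wider than those of H2-Aa, H2-Ab1 and H2-Eb1, and the Nckap1l-/- medians lie below the wild-type medians in those 3 panels only among the H2 genes.

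*H2-Aa*, *H2-Ab1* and *Cd74* kept nearly fixed proportions. The CPM of *H2-Aa* was 1.14 to 1.74 times that of *H2-Ab1* in every one of the 160 mice (median 1.40), and *Cd74* was 2.33 to 3.64 times *H2-Ab1* (median 2.68). The paired beta chain genes of H2-DM did not behave so. The CPM of *H2-DMb2* was between 0.0393 and 1.84 times that of *H2-DMb1*. The median of this ratio was 0.643 in wild-type and 0.168 in *Nckap1l*-/- mice, 0.861 and 0.471 for *Dock2*, 0.819 and 0.855 for *Gpsm3* and 0.938 and 1.01 for *Dok3*.

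The knockout of *Nckap1l*, which encodes the haematopoietic subunit of the WAVE actin-regulatory complex, was compared with wild type first. None of the 10 genes passed an adjusted p of 0.05 by the quasi-likelihood test of edgeR, fitted with a term for sex, and 0 of 17947 genes did (0.0% of those tested). Before adjustment 4 of the 10 had a p under 0.05, against 4.5% of all genes. The median fitted log2 difference of the 10 was 0.36 and that of all genes 0.01.

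The named genes were split in direction in this line. *H2-Ob*, the beta chain of the inhibitor, was at 0.832, 6.90 and 52.1 CPM (lowest, median and highest) in wild-type mice and at 0.412, 0.989 and 13.6 in *Nckap1l*-/- mice. Of the 16 knockouts 12 lay below the wild-type median and 6 below the lowest wild-type mouse, and the ranges overlapped. Its log2 difference was −2.11 (SE 0.73, unadjusted p = 0.00754, adjusted p = 0.916). *H2-Oa*, the alpha chain of the inhibitor, was at 0.0594, 1.01 and 6.62 CPM in wild-type and 0, 0.220 and 1.63 in knockout mice, a log2 difference of −1.48 (SE 0.61, unadjusted p = 0.0217). The knockout median of *H2-Oa* was only 3.5 counts, which limits the precision of this value. *H2-DMb2* was at 1.72, 6.41 and 42.3 CPM in wild-type and 1.08, 2.85 and 13.3 in knockout mice, and 13 of 16 knockouts were below the wild-type median. Its log2 difference was −1.26 (SE 0.46, unadjusted p = 0.0101).

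The presenting chains had the opposite sign. *H2-Aa* was at 72.2, 140 and 340 CPM in wild-type and 78.4, 183 and 455 in *Nckap1l*-/- mice. *H2-Ab1* was at 49.1, 106 and 256 CPM in wild-type and 57.6, 138 and 336 in knockout mice, and *H2-Eb1* had medians of 94.9 and 115 CPM. Of the 16 knockouts 13 were above the wild-type median for each of these 3 genes, yet the groups overlapped over almost their whole range. The log2 differences were 0.41 (SE 0.27) for *H2-Aa*, 0.41 (SE 0.26) for *H2-Ab1* and 0.30 (SE 0.25) for *H2-Eb1*. *Cd74* was at 130, 303 and 709 CPM in wild-type and 170, 378 and 1223 in knockout mice, with a log2 difference of 0.53 (SE 0.29). Within the 3 runs of sample numbers described next, the medians of *H2-Ab1* in wild-type and knockout mice were 100 and 115 CPM, 129 and 171, and 80.0 and 121. Among the chains of H2-DM, *H2-DMa* had medians of 9.94 and 14.2 CPM and *H2-DMb1*, the close copy of *H2-DMb2*, had medians of 12.6 and 16.6 CPM. *H2-DMb1* was the member with the largest positive value, a log2 difference of 0.71 (SE 0.30, unadjusted p = 0.0257). *Ciita* stood between, at 6.06, 20.6 and 74.9 CPM in wild-type and 5.36, 19.3 and 97.1 in knockout mice, with a log2 difference of −0.002 (SE 0.38) whose sign depended on the setting.

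B cell markers moved with the values of *H2-Ob*, *H2-Oa* and *H2-DMb2* in this comparison. Summed over the 10 markers they were at 4.52 to 469 CPM in wild-type mice (median 53.4) and 3.69 to 117 CPM in *Nckap1l*-/- mice (median 7.19), and 10 of 10 had a negative log2 difference with an unadjusted p under 0.05, with a median of −2.26 and none past adjustment. Of the plasma cell markers 3 were tested and 1 was lower at an unadjusted p under 0.05 (median −0.80). At that threshold 2 of 9 dendritic cell markers were higher and 1 lower (median −0.15). Of 12 interferon-gamma-induced genes and 10 macrophage markers 0 were under it, with medians of 0.235 and 0.20. The summed interferon-gamma-induced genes had medians of 499 CPM in wild-type and 784 in *Nckap1l*-/- mice. The part of these lists in the result was not tested. In whole tissue, fewer cells of a type and less RNA per cell cannot be told apart. The sample numbers in the titles fall into 3 separate runs in this line, and genotypes were mixed in each. In the first run *H2-Ob* was at a median of 1.89 CPM in 8 wild-type and 0.620 in 6 knockout mice, and 1 wild-type library stood apart with 52.1 CPM of *H2-Ob*, 42.3 of *H2-DMb2* and 469 of the B cell markers. In the second run *H2-Ob* was at 5.31, 11.4, 15.2 and 21.7 CPM in wild-type and 0.684, 7.51, 8.84, 12.3 and 13.6 in knockout mice. In the third run *H2-Ob* was at 10.1, 15.5 and 20.6 CPM in wild-type and 0.462, 0.895, 0.991, 1.18 and 1.28 in knockout mice. The genotypes overlapped in the first and the second run and not in the third. Without the library that stood apart the log2 difference of *H2-Ob* was −1.85 and that of *H2-DMb2* −1.003, with adjusted p of 0.846 and 0.983.

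**Figure D2:**
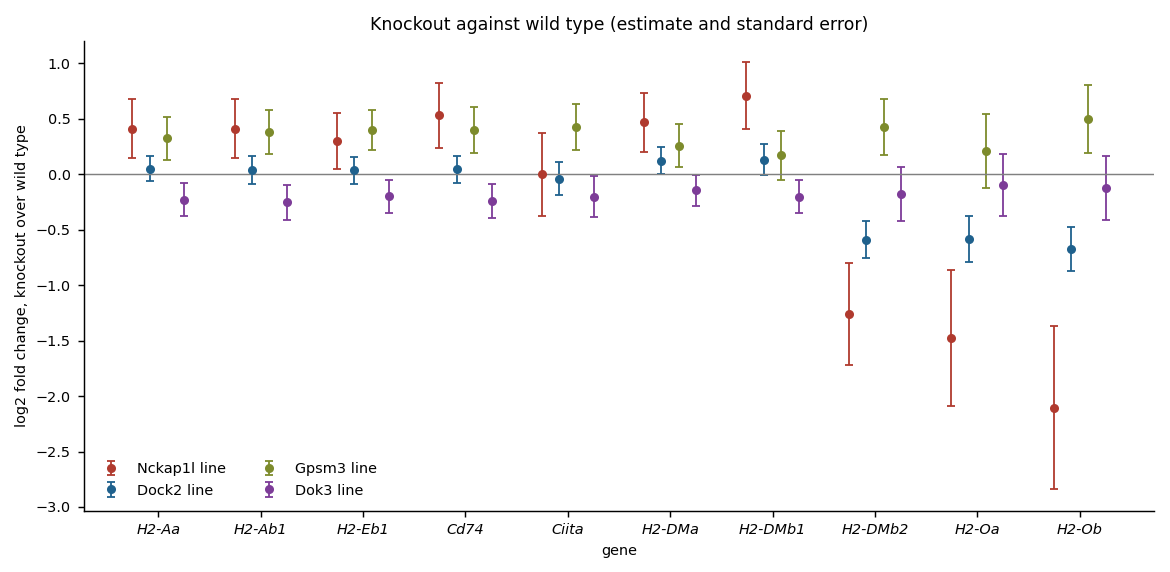
Log2 difference of knockout against wild type (edgeR) for the 10 genes in each line; points are the fitted values and bars are ± 1 SE. In the Nckap1l and Dock2 lines H2-DMb2, H2-Oa and H2-Ob lie below 0, with H2-Ob at −2.11 and −0.67, while all 10 genes lie above 0 in the Gpsm3 line and all 10 below 0 in the Dok3 line.

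*Dock2* is a guanine nucleotide exchange factor for Rac in leukocytes. Here too none of the 10 genes passed the adjusted threshold in the comparison with wild type, in which 6 of 17648 genes (0.034%) did, nor did any by DESeq2 or limma-voom, and 3 of the 10 had an unadjusted p under 0.05 against 5.1% of all genes. The 3 were again *H2-DMb2*, *H2-Oa* and *H2-Ob*. *H2-Ob* was at 1.34, 9.84 and 17.7 CPM in wild-type and 3.01, 5.45 and 9.46 in *Dock2*-/- mice. All 18 knockouts lay below the wild-type median, although none was below the lowest wild-type mouse. Its log2 difference was −0.67 (SE 0.20, adjusted p = 0.316). *H2-DMb2* was at 2.91, 7.86 and 15.6 CPM in wild-type and 2.89, 5.17 and 11.5 in knockout mice, with 17 of 18 knockouts below the wild-type median and a log2 difference of −0.59 (SE 0.16, adjusted p = 0.253). *H2-Oa* was at 0.349, 1.19 and 2.44 CPM in wild-type and 0.344, 0.757 and 1.70 in knockout mice, a log2 difference of −0.59 (SE 0.21, adjusted p = 0.629).

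For *H2-DMb2* and *H2-Ob* the call depended on the setting. Without the 5 libraries holding skin RNA the log2 differences were −0.71 and −0.85 with adjusted p of 0.0193 and 0.00471, and without the 3 libraries holding striated muscle RNA, all of them wild type, −0.71 and −0.84 with adjusted p of 0.0138 and 0.00345. With 2 surrogate variables as covariates they were −0.66 and −0.74 with adjusted p of 0.0186 and 0.0209. The other 7 genes sat near 0: *H2-Aa* had medians of 129 CPM in wild-type and 130 in *Dock2*-/- mice, *H2-Ab1* of 89.3 and 95.4, *H2-Eb1* of 89.2 and 94.1, *Cd74* of 246 and 248, *H2-DMa* of 9.63 and 9.56, *H2-DMb1* of 9.99 and 9.72 and *Ciita* of 23.2 and 19.3. Their log2 differences lay between −0.04 for *Ciita* and 0.13 for *H2-DMb1*. The 95% interval for *H2-Ab1* ran from −0.21 to 0.28.

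The B cell markers moved with these 3 genes again, at 7.69 to 142 CPM in wild-type mice (median 73.1) and 14.7 to 92.7 CPM in *Dock2*-/- mice (median 34.1), with 10 of 10 at an unadjusted p under 0.05, a median log2 difference of −0.87 and none past adjustment. Of 4 plasma cell markers tested, 3 were lower at an unadjusted p under 0.05, with a median of −0.91, and the summed level of that list was 154 to 546 CPM in wild-type and 113 to 351 in *Dock2*-/- mice. Of 12 interferon-gamma-induced genes tested, 10 had a positive log2 difference at an unadjusted p under 0.05, with a median of 0.53, while the presenting chains stayed within 0.05 of 0. The summed level of this list was 316 to 643 CPM in wild-type mice (median 420) and 334 to 2487 CPM in *Dock2*-/- mice (median 451). The medians were thus close, and the groups differed mostly in their highest values. The part of these 3 lists in the result was not tested.

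*Gpsm3* encodes a regulator of G-protein signalling in leukocytes and lies beside the class II genes. None of the 10 passed the adjusted threshold in *Gpsm3*-/- mice, and of 17560 genes 1 did (0.00569%), *Gpsm3* itself at a log2 difference of −2.06 (SE 0.28, adjusted p = 0.0001). All 10 values were positive, with a median of 0.39 against 0.003 for all genes, and 2 of the 10 had an unadjusted p under 0.05 against 4.86% of all genes. *H2-Eb1* had medians of 74.3 CPM in wild-type and 84.4 in knockout mice and a log2 difference of 0.40 (SE 0.18, unadjusted p = 0.0343). *Ciita* was at 12.4, 20.7 and 45.7 CPM in wild-type and 7.35, 25.05 and 61.0 in knockout mice, a log2 difference of 0.43 (SE 0.21, unadjusted p = 0.0443). For both, 14 of 20 knockouts lay above the wild-type median and the ranges overlapped, with an adjusted p of 0.936.

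The remaining members had the same sign. *H2-Aa* was at 62.9, 114 and 250 CPM in wild-type and 37.0, 133 and 273 in *Gpsm3*-/- mice, *H2-Ab1* at 44.9, 80.1 and 160 against 25.3, 86.5 and 238, and *Cd74* at 127, 210 and 508 against 65.1, 239 and 595. In each of these 3 genes the lowest and the highest mouse of the line were both knockouts. *H2-Ob* had medians of 8.08 and 9.79 CPM and a log2 difference of 0.50 (SE 0.31), and *H2-DMb2* medians of 7.24 and 9.15 CPM and a log2 difference of 0.42 (SE 0.25). *H2-Oa* (0.21, SE 0.33) and *H2-DMb1* (0.17, SE 0.22) had the smallest values, and under another tool or with surrogate variables their sign turned. The titles of this line fall into 2 runs of sample numbers with 10 mice of each genotype in both. The medians of *H2-Ab1* were 77.7 CPM in wild-type and 79.5 in knockout mice in the first run and 80.5 and 136 in the second, and those of *Cd74* were 203 and 220 in the first and 216 and 372 in the second. Interferon-gamma-induced genes moved with the members, with 10 of 12 positive at an unadjusted p under 0.05 and a median log2 difference of 0.69, and summed CPM of 289 to 1484 in wild-type and 344 to 2717 in knockout mice. Of 9 dendritic cell markers 4 were higher at an unadjusted p under 0.05, with a median of 0.32 and summed CPM of 29.8 to 55.6 in wild-type and 17.1 to 88.7 in knockout mice. The B cell and neutrophil markers had medians of 0.56 and 0.89, with 0 at an unadjusted p under 0.05. The part of these lists in the result was not tested.

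Around *Gpsm3*, 55 protein-coding genes with a start within 0.5 Mb were tested in this line, and 0 passed the adjusted threshold. At an unadjusted p under 0.05, 2 of the 55 were higher and 1 lower, a share close to the 4.86% of all genes in this line. Their median log2 difference was 0.03. *Pbx2*, which overlaps *Gpsm3*, had the smallest p, with a log2 difference of −0.21 (SE 0.06, unadjusted p = 0.000804). *H2-Eb1* came next (unadjusted p = 0.0343), and then *Tap2*, a subunit of the peptide transporter of the class I pathway, with 0.25 (SE 0.12, unadjusted p = 0.0446). Among the class II members the farthest from *Gpsm3*, *H2-Oa*, had 0.21 and the nearest, *H2-Eb1*, 0.40.

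**Figure D3:**
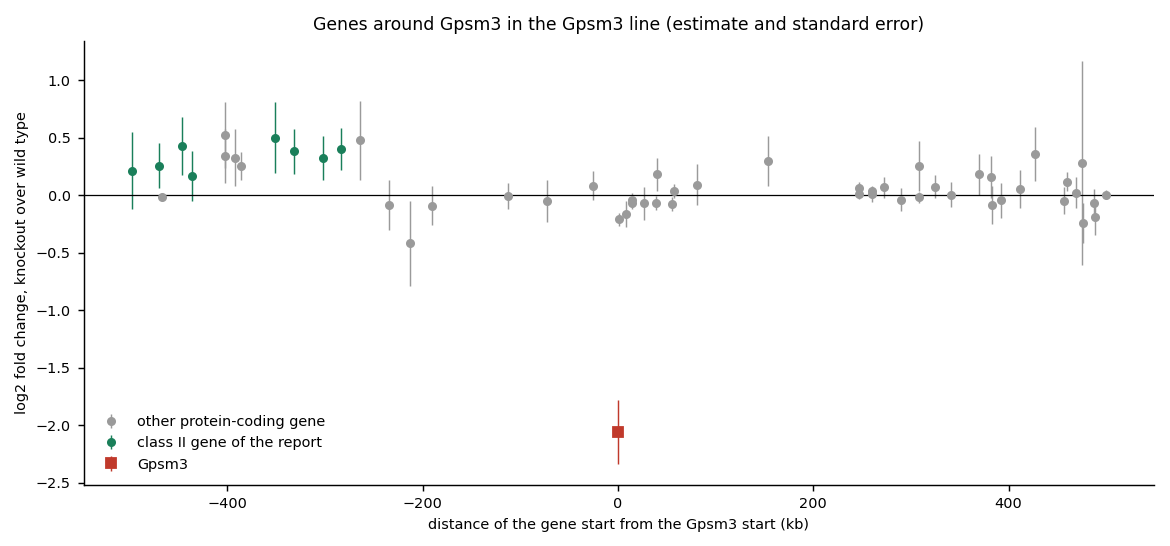
Log2 difference of Gpsm3-/- against wild type (edgeR, bars ± 1 SE) for each tested protein-coding gene against the distance of its start from the start of Gpsm3 in kb; class II members are green, Gpsm3 is the red square and other genes are grey. Only Gpsm3, at −2.06, stands apart, and the 8 members on chromosome 17 lie between 0.17 and 0.50.

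*Dok3*, an adaptor protein that restrains receptor signalling in B cells and myeloid cells, was deleted in the 129 line. None of the 10 genes passed the adjusted threshold, as none of 17612 genes did (0.0%), and 0 of the 10 had an unadjusted p under 0.05 against 2.19% of all genes. All 10 values were negative, with a median of −0.20. *H2-Ab1* was at 50.2, 126 and 239 CPM in wild-type and 34.3, 101 and 220 in *Dok3*-/- mice, a log2 difference of −0.25 (SE 0.16), and *Cd74* was at 144, 340 and 586 against 103, 287 and 609 CPM, a log2 difference of −0.24 (SE 0.15). Of 26 knockouts 18 were below the wild-type median for *H2-Ab1* and 19 for *Cd74*, and the ranges overlapped throughout. In the 2 runs of sample numbers of this line the medians of *H2-Ab1* in wild-type and knockout mice were 113 and 99.5 CPM, and 133 and 113. *H2-Ob* was at 2.14, 14.4 and 39.8 CPM in wild-type and 2.23, 9.64 and 50.1 in knockout mice, a log2 difference of −0.12 (SE 0.29). *Ciita* had medians of 32.4 and 28.3 CPM. The B cell markers had a median log2 difference of −0.16 and the interferon-gamma-induced genes one of 0.01, with 0 of either list at an unadjusted p under 0.05. Of 6 T cell markers 3 were lower at an unadjusted p under 0.05, with a median of −0.39 and summed CPM of 6.66 to 43.0 in wild-type and 5.01 to 22.8 in knockout mice, and their part in the values of the members was not tested.

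*H2-Eb2*, a beta chain gene near *H2-Eb1* that is not one of the 10, had values like those of *H2-Ob*. Its medians were 1.98 CPM in wild-type and 0.392 in *Nckap1l*-/- mice, 3.11 and 1.21 for *Dock2*, 2.70 and 2.94 for *Gpsm3* and 4.17 and 3.55 for *Dok3*. Its log2 difference was −2.02 (SE 0.76) in the *Nckap1l* line and −1.02 (SE 0.24, adjusted p = 0.155) in the *Dock2* line. *H2-Ea-ps*, the E alpha chain gene that is annotated as a polymorphic pseudogene, reached 0.586 CPM at most and was at 0 counts in 62 of 160 mice, and the group medians of 0 to 0.134 CPM lie under the level of 3 counts in the deeper libraries. The E alpha chain is the partner of the *H2-Eb1* chain, and whether this pair formed in these mice was not measured. Among 34 other genes of the pathway, *H2-Eb2* included, 32 were tested and 0 were called in each line. At an unadjusted p under 0.05, 0 were higher and 2 lower with *Nckap1l* deleted, 1 and 1 with *Dock2*, 9 and 1 with *Gpsm3* and 0 and 0 with *Dok3*, with medians of −0.03, 0.03, 0.15 and 0.03. The shares of all genes at that threshold were 4.5%, 5.1%, 4.86% and 2.19%. Among the smallest p after *H2-Eb2* were those of the costimulation genes *Cd83* (−0.68) and *Cd86* (−0.56) in the *Nckap1l* line and of *Irf1* (0.34), a transcription factor of the interferon response, in the *Dock2* line. For *Gpsm3* they were *Cd86* (0.59), *Cd40* (0.58) and the cytokine-signalling inhibitor *Socs1* (0.90). For *Dok3* they were the cathepsin *Ctss* (0.14), *March8* (0.06), which encodes a ubiquitin ligase, and the coreceptor *Cd4* (−0.21).

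Whether a member responded differently in different lines was tested as the difference of knockout effects, in a fit of all 160 libraries with 19849 genes, so the differences need not equal those of the values fitted within each line. *Nckap1l* and *Gpsm3* were the only pair of lines in which members passed the adjusted threshold, 2 of 10 against 0.892% of all genes. *H2-Ob* differed by −2.29 on the log2 scale (SE 0.56, adjusted p = 0.0166) and *H2-DMb2* by −1.60 (SE 0.41, adjusted p = 0.0274), in both cases lower in the *Nckap1l* line. *H2-Oa* differed by −1.55 (SE 0.54, adjusted p = 0.202), and *H2-DMb1* by 0.52 (95% interval −0.07 to 1.10). *H2-Eb2* differed by −2.22 (SE 0.61, adjusted p = 0.0458). Both calls among the 10 depended on 1 library and on the setting, and the call of *H2-Eb2* was not followed under other settings. Without the wild-type library of the *Nckap1l* line that stood apart, the differences were −1.93 for *H2-Ob* (adjusted p = 0.0746) and −1.27 for *H2-DMb2* (adjusted p = 0.165), and they were also past the threshold neither by limma-voom (−2.28 and −1.23) nor in males alone (−1.80 and −1.30).

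In the other pairs 0 of the 10 passed by edgeR, and 0 by DESeq2 or limma-voom. The share of all genes called was 0.0151% for *Nckap1l* against *Dock2*, 0.141% for *Nckap1l* against *Dok3*, 0.368% for *Dock2* against *Gpsm3*, 0.0504% for *Dock2* against *Dok3* and 0.161% for *Gpsm3* against *Dok3*. For *Nckap1l* against *Dok3*, 8 of the 10 had an unadjusted p under 0.05, against 4.62% of all genes, 5 of them higher in the *Nckap1l* line, led by *H2-DMb1* (0.89, SE 0.29) and *Cd74* (0.76, SE 0.28), and 3 lower, *H2-Ob* (−1.67, SE 0.54), *H2-Oa* (−1.24, SE 0.52) and *H2-DMb2* (−1.003, SE 0.40). For *Gpsm3* against *Dok3*, 5 of the 10, *H2-Aa*, *H2-Ab1*, *H2-Eb1*, *Cd74* and *Ciita*, had an unadjusted p under 0.05 and a positive value of 0.55 to 0.64, against 7.4% of all genes at that threshold. At the same unadjusted threshold 1 of the 10 was found for *Nckap1l* against *Dock2*, *H2-Ob* (−1.09, SE 0.54), 2 for *Dock2* against *Gpsm3*, *H2-DMb2* (−1.02, SE 0.38) and *H2-Ob* (−1.20, SE 0.50), and 0 for *Dock2* against *Dok3*, where the shares of all genes were 3.04%, 4.82% and 1.92%. Pairs that share a line share its mice, so their values are not separate evidence.

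The wild-type mice of the 4 lines differed among themselves, and here members did pass the threshold. Class II genes were lower in the wild-type mice of the *Gpsm3* line than in those of the *Dok3* line for 7 of the 10, where 30.4% of all genes were called. *H2-Eb1* was lower by a log2 difference of −0.58 (SE 0.15, adjusted p = 0.00326), *Ciita* by −0.70 (SE 0.20, adjusted p = 0.00515), *H2-Ab1* by −0.58 (SE 0.16, adjusted p = 0.00527) and *Cd74* by −0.57 (SE 0.16, adjusted p = 0.00648). *H2-Aa* (−0.49), *H2-DMb2* (−0.65) and *H2-Ob* (−0.83) were also called, with adjusted p of 0.0151, 0.0492 and 0.0496. In the *Dock2* line *Ciita* (−0.77, adjusted p = 0.0115), *Cd74* (−0.56, adjusted p = 0.0315) and *H2-Aa* (−0.50, adjusted p = 0.0469) were lower than in the *Dok3* line, 3 of 10 against 10.6% of all genes, and the number ranged with the setting. *H2-DMa* was higher in the *Nckap1l* line than in the *Dock2* line (0.45, SE 0.16, adjusted p = 0.0493), 1 of 10 against 15.4% of all genes, and this call was lost without the single wild-type library of the *Nckap1l* line that stood apart. No member was called between *Nckap1l* and *Gpsm3* (24.1% of all genes), *Nckap1l* and *Dok3* (11.5%) or *Dock2* and *Gpsm3* (0.121%), where 0, 1 and 0 of the 10 had an unadjusted p under 0.05 against 39.8%, 25.4% and 5.45% of all genes.

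By median the order of *Ciita* in wild-type mice was *Dok3* (32.4 CPM), *Dock2* (23.2), *Gpsm3* (20.7) and *Nckap1l* (20.6). Only *Dok3* differed from *Dock2* and from *Gpsm3* by the test, and *Dok3* against *Nckap1l* (adjusted p = 0.0693) and the neighbours *Dock2*, *Gpsm3* and *Nckap1l* against each other did not pass it. For *Cd74* the order was *Dok3* (340 CPM), *Nckap1l* (303), *Dock2* (246) and *Gpsm3* (210), and again only *Dok3* against *Dock2* and *Dok3* against *Gpsm3* passed. Line, strain, DSS dose, collection day, run of sample numbers and the share of treated mice cannot be told apart in this comparison.

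Females and males were compared in the lines that held both, with genotype as a covariate. None of the 10 genes passed in the *Nckap1l* line, where 0.178% of all genes were called and 0 of the 10 had an unadjusted p under 0.05 against 15.7% of all genes. None passed in the *Dock2* line either, where 9.75% of all genes were called. *H2-Oa* alone had an unadjusted p under 0.05 there, 1 of 10 against 25.6% of all genes, with a female-minus-male log2 difference of 0.44 (SE 0.20, unadjusted p = 0.0341, adjusted p = 0.158) and wild-type medians of 1.55 CPM in females and 0.943 in males. For *H2-Ab1* the 95% interval of the sex difference in the *Dock2* line ran from −0.16 to 0.32.

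Variation between mice of the same group divided the 10 genes into 2 sets, with *Ciita* between them. Log2 CPM was taken relative to the mean of each of the 8 line-by-genotype groups, and Pearson correlations were computed over the 160 mice. *H2-Aa*, *H2-Ab1*, *H2-Eb1*, *Cd74*, *H2-DMa* and *H2-DMb1* correlated with each other at r = 0.896 to 0.984. *H2-DMb2*, *H2-Oa* and *H2-Ob* correlated with each other at r = 0.867 to 0.945. Between these sets r was only 0.327 to 0.540, and the lowest value joined *H2-DMb1* to *H2-Ob*. A first component held 75.2% of the variance of the 10 genes and a second 18.7%.

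**Figure D4:**
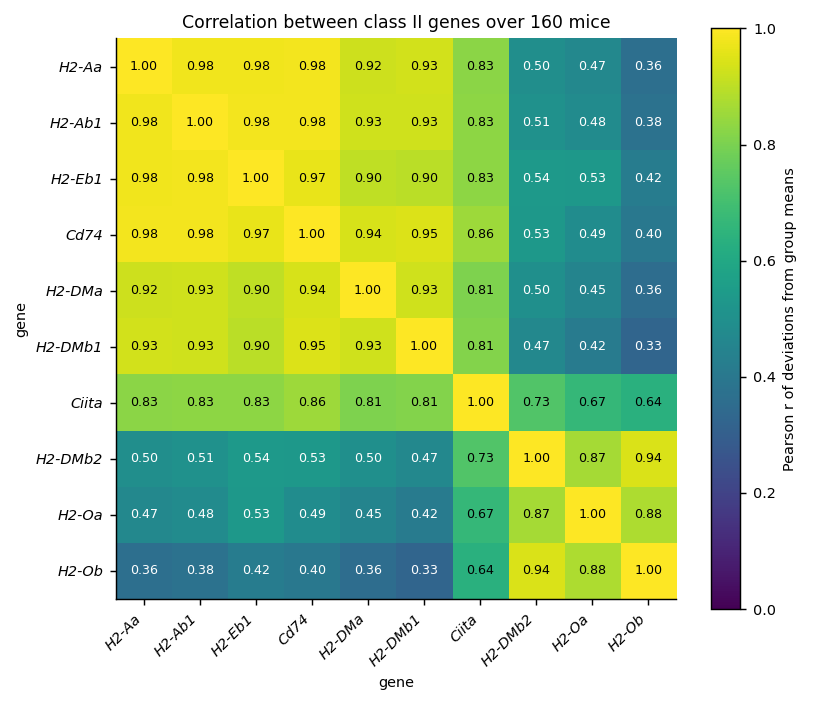
Pearson correlation between each pair of the 10 genes over 160 mice, from log2 CPM relative to the group means; the colour gives r. One bright square holds H2-Aa, H2-Ab1, H2-Eb1, Cd74, H2-DMa and H2-DMb1 (0.896 to 0.984), another H2-DMb2, H2-Oa and H2-Ob (0.867 to 0.945), and Ciita is intermediate to both.

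*Ciita*, the coactivator of all these promoters, lay between the sets. Its correlation was 0.808 to 0.855 with the first 6 genes and 0.637 to 0.728 with *H2-DMb2*, *H2-Oa* and *H2-Ob*. With *Cd74*, the closest, r was 0.855 and Spearman's rho 0.827. Each had a permutation p of 1e-05, the smallest that 100000 resamples within groups can give, and an adjusted p of 1e-05 over the 59 relations computed. Without the 2 mice farthest from the median r was 0.840, and within single runs of sample numbers it was 0.773 to 0.958.

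*H2-DMb2*, *H2-Oa* and *H2-Ob* tracked the B cell markers. With the mean of the 10 markers, r was 0.979 and rho 0.972 for *H2-Ob*, r was 0.931 and rho 0.935 for *H2-DMb2*, and r was 0.870 and rho 0.843 for *H2-Oa*, each with a permutation p and an adjusted p of 1e-05. The values without the 2 farthest mice were 0.977, 0.926 and 0.862. Within single runs of sample numbers they were 0.965 to 0.995 for *H2-Ob*, 0.884 to 0.972 for *H2-DMb2* and 0.760 to 0.958 for *H2-Oa*. *Ciita* followed the same score at r = 0.600 (rho 0.616, permutation p of 1e-05 for both), and the first 6 genes at r = 0.306 to 0.382. For *H2-Ab1*, r was 0.343 (rho 0.325, permutation p = 9e-05 and 8e-05), and within runs it was 0.00897 to 0.696, so that in 1 run no relation was seen.

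With the mean of 12 interferon-gamma-induced genes the order was different. *H2-DMa* (r = 0.706, rho 0.680), *H2-DMb1* (0.703, 0.680), *Cd74* (0.663, 0.656), *H2-Aa* (0.657, 0.664), *Ciita* (0.650, 0.648), *H2-Ab1* (0.639, 0.638) and *H2-Eb1* (0.610, 0.618) had a permutation p of 1e-05 for both measures. *H2-DMb2* (0.330, 0.301), *H2-Oa* (0.280, 0.237) and *H2-Ob* (0.220, 0.202) came last, with adjusted permutation p for r of 0.000132, 0.00115 and 0.0101. Within runs *H2-DMa* ranged from 0.610 to 0.891 and *H2-Ob* from −0.21 to 0.758, so the relation of *H2-Ob* did not hold in every run. The dendritic cell score was closest to the presenting chains, at r = 0.789 and rho 0.789 for *H2-Eb1*, 0.759 and 0.776 for *H2-Ab1* and 0.727 and 0.744 for *H2-Aa*, each with a permutation p of 1e-05. The macrophage score had r of 0.633 for *H2-Ab1*, 0.616 for *H2-Eb1*, 0.612 for *Cd74* and 0.602 for *H2-Aa*. Its r was 0.600 for *H2-DMa* and 0.598 for *H2-DMb1*, and each of these had a permutation p of 1e-05. The same score had r of 0.457 for *Ciita*, 0.418 for *H2-Oa*, 0.372 for *H2-DMb2* and 0.299 for *H2-Ob*. The neutrophil score had a lower r for every member, from 0.181 for *H2-Ob* to 0.441 for *H2-DMb1*. These relations are between transcripts of whole tissue and do not place a transcript in a cell.

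**Figure D5:**
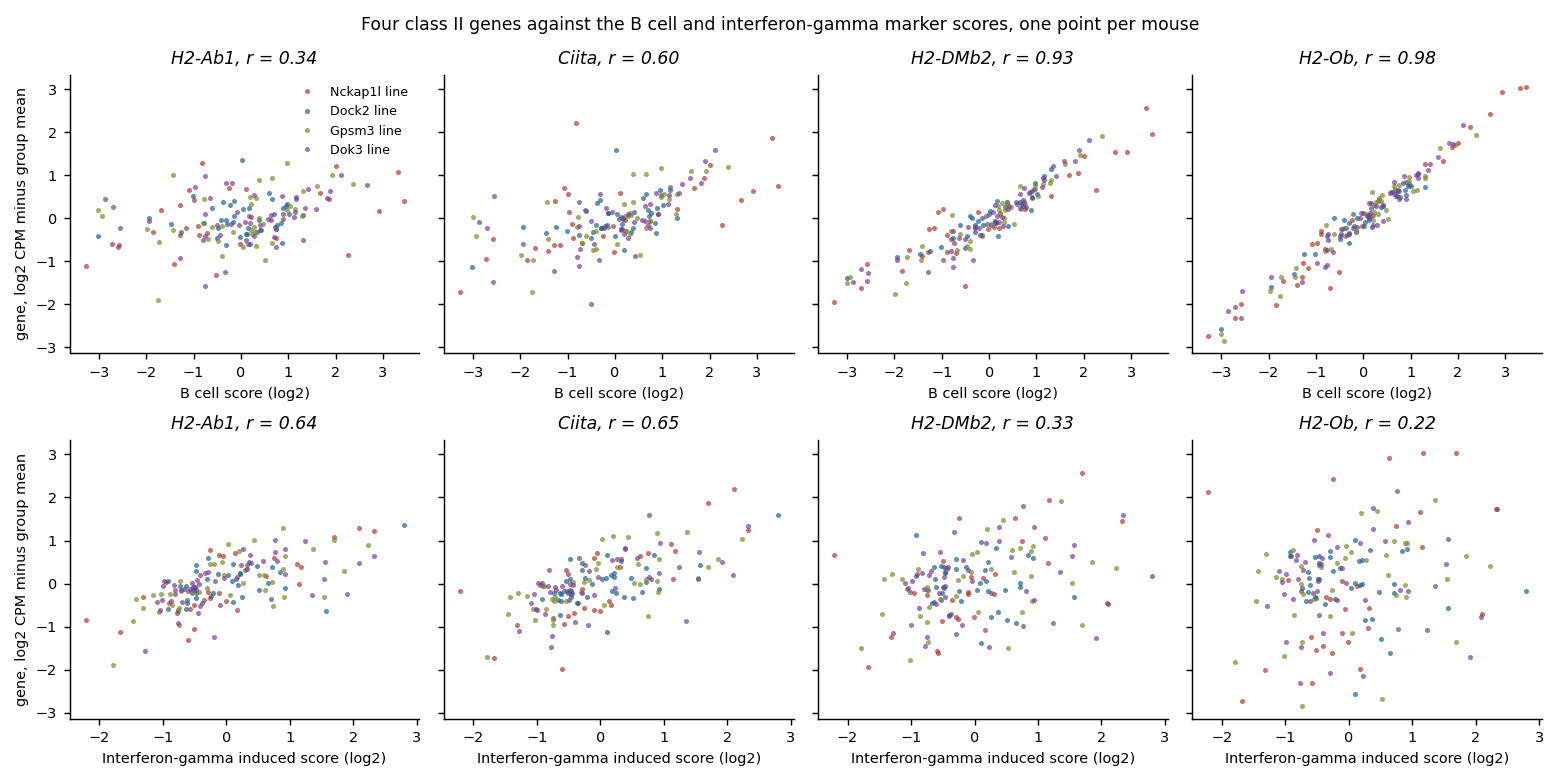
H2-Ab1, Ciita, H2-DMb2 and H2-Ob against the B cell marker score (top) and the interferon-gamma-induced score (bottom), all as log2 CPM relative to the group means; each point is 1 mouse, coloured by line. H2-Ob follows the B cell score along a narrow line (r = 0.979) and is scattered against the interferon-gamma score (r = 0.220), whereas H2-Ab1 has r = 0.343 and 0.639.

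The H2-DM beta chain genes, which fell into different sets, are close copies. Their transcripts, *H2-DMb1* and *H2-DMb2*, were 93.69% identical over 1220 aligned bases, with 77 differing bases. Of all stretches as long as a read, 11.34% in *H2-DMb1* and 10.28% in *H2-DMb2* were the same in the other gene, so a small part of the counts may have been dropped or split between them. *H2-Oa* shared 8.976% with the antisense gene *BC051537*, *H2-DMa* 6.577% with *Brd2* and *Ciita* 0.3241% with *Dexi*, all of which overlap them. *H2-Eb1* overlaps the antisense gene *Gm20513*. Whether the counting used strand is not given in the sources used here, and counts from such pairs may be mixed.

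The genes most like the members over the 160 mice were taken from 14372 others with a mean log2 CPM of at least 1. For the mean of *H2-Aa*, *H2-Ab1*, *H2-Eb1* and *Cd74* they were *Itgax* (r = 0.783), which encodes the dendritic cell integrin CD11c, the class I genes *H2-Q7* (0.778), *H2-Q5* (0.777) and *H2-Q6* (0.764), the class I light chain *B2m* (0.747), the immunoproteasome subunit *Psmb8* (0.747), the guanylate-binding protein gene *Gbp8* (0.728) and *Slamf8* (0.726). For *H2-Ob* they included *Cd79a* (r = 0.969), *Pax5* (0.962), *Bank1* (0.958), *Ms4a1* (0.958), *Fcmr* (0.958), *Cr2* (0.958) and *Cd79b* (0.957), of which *Cd79a* and *Cd79b* encode the signalling chains of the B cell receptor and *Pax5* the transcription factor of B cell identity. For *Ciita* they included *9930111J21Rik1* (r = 0.805), *Gbp8* (0.774), *Sp110* (0.773), *Grap2* (0.762), *Lck* (0.752), *Fgd2* (0.752) and *H2-M3* (0.746). Of these, *Itgax*, *Cd79a*, *Pax5*, *Bank1*, *Ms4a1*, *Cd79b* and *Lck* are in the marker lists used above. These values describe likeness over shared libraries and carry no test.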

How the data were processed

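RNA of 160 distal colon samples was sequenced after ribosomal RNA depletion. Per the labels and methods, the authors aligned reads with STAR to mm10, and featureCounts of the Subread package gave the count of each gene. Versions and the strand setting are not given in the sources used here. The deposited values are raw counts per Ensembl gene in 1 file per sample, without normalization. All count columns were mapped to a sample, and 0 were left unused. Symbols and positions were read from GENCODE vM21 (GRCm38, equal to mm10), in which a name was found for 37607 of 39179 genes. Totals per library were 4344988 to 19993833.

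Samples were grouped by line and genotype from their titles. DSS treatment per mouse was unknown and not modelled. No pair of replicates agreed within sampling noise (smallest chi-square per gene 3.93). The 10 members, the lists and the tests were chosen with earlier results of these data known. All members, *H2-Eb2* and *H2-Ea-ps* were named throughout, and of the other pathway genes and the neighbours of *Gpsm3* within 0.5 Mb those past the threshold and the 3 with the smallest p. Genes most like a member were the 8 with the highest Pearson r. Some genes that these rules name are not reported here.

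CPM are counts per 1000000 of the file total. Genes passing filterByExpr (minimum count 10) were tested with edgeR 4.0.16 (R 4.3.3), TMM normalization and the quasi-likelihood test, adding a sex term where a line held both sexes, and p-values were adjusted by the Benjamini-Hochberg method over all genes tested at a threshold of 0.05. SE were taken as the log2 difference over the square root of F. Intervals are 95%. Between-line differences used 1 fit of all samples, and wild-type levels a fit of all wild-type samples. Labels do not say whether samples of a group came from separate litters or cages, so p-values measure the spread between these mice. Correlations used log2 CPM with a prior count of 2 minus group means, with 100000 permutations within groups. Counting limits cover counting error only. The fits were tested on simulated counts.

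Alternatives were DESeq2 1.42.0, limma-voom (limma 3.58.1), no filter, library totals, relative log expression factors, 2 surrogate variables (sva 3.50.0), run of sample numbers as a covariate, no sex covariate, males only, a prior count of 0.5 and TMM-scaled CPM. After the data were seen, fits without libraries holding skin or striated muscle RNA (over 1000 summed CPM of markers), without the library under 5000000 counts, without libraries whose sex markers went against the label, and without the Nckap1l-line wild-type library highest in B cell markers were added.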

Additional observations from a re-analysis of the deposited data

Results flagged for a closer look

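The knockout effects on *H2-DMb2* and *H2-Ob* differed between the *Nckap1l* and the *Gpsm3* line by the test of the difference itself (edgeR fit of all 160 libraries, adjusted over 19849 genes). For *H2-Ob* the difference was −2.29 on the log2 scale (SE 0.56, adjusted p = 0.0166), and separate fits within each line gave −2.11 in the *Nckap1l* line and 0.50 in the *Gpsm3* line. For *H2-DMb2* it was −1.60 (SE 0.41, adjusted p = 0.0274), and the separate fits gave −1.26 and 0.42. Neither gene passed the threshold within a line, and both calls were lost when 1 wild-type library of the *Nckap1l* line, the highest in B cell markers, was left out (adjusted p of 0.0746 and 0.165). No group had 4 to 10 samples, so single samples were not tested as outliers.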

How the results depend on the processing

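In the *Nckap1l*, *Gpsm3* and *Dok3* lines 0 of the 10 genes were called under every alternative run, and in the sex comparisons likewise. In the *Dock2* line 2 genes were called with 2 surrogate variables, without libraries with skin RNA and without libraries with striated muscle RNA. The 2 calls for *Nckap1l* against *Gpsm3* became 0 by limma-voom, in males only and without the *Nckap1l* wild-type library highest in B cell markers, and 3 without skin or without muscle RNA. Among wild-type mice, the 1 call for *Nckap1l* against *Dock2* became 0 by limma-voom, without a filter on low counts, with library totals, with relative log expression factors, in males only and without that library, 3 without skin RNA and 2 without muscle RNA. The 0 calls for *Nckap1l* against *Gpsm3* became 3 without skin RNA and 1 without muscle RNA. The 0 for *Nckap1l* against *Dok3* became 1 by DESeq2, with library totals and without that library, and 2 by limma-voom. The 3 for *Dock2* against *Dok3* became 6 by DESeq2 and 1 by limma-voom, in males only and without muscle RNA, and 2 without that library. For these pairs of lines the share of all genes called under each alternative is not given here. The counts therefore show only how the calls moved. The sign turned for values near 0. In the *Nckap1l* line *Ciita* was at 0.018 by limma-voom, 0.30 with 2 surrogate variables, 0.050 without the sex covariate, 0.37 in males only, 0.12 without skin RNA and 0.13 without that library. In the *Dock2* line *H2-Ab1* was at −0.013 by limma-voom and −0.026 with 2 surrogate variables, *Cd74* at −0.0056 and −0.017, *H2-Eb1* at −0.020 with 2 surrogate variables and *Ciita* at 0.22 in males only. In the *Gpsm3* line *H2-Oa* was at −0.17 by limma-voom and *H2-DMb1* at −0.0035 with 2 surrogate variables. The cause was not tested. All 118 alternative correlations kept the sign of the reported ones. All 80 TMM-scaled group means differed from the reported means by less than the SD of the group. Over all genes, calls in the *Nckap1l* line were 0, but 21 by DESeq2, 27 without a filter and 93 with 2 surrogate variables. In the *Dock2* line they were 6, but 69, 31 and 94, and 79 without skin and 56 without muscle RNA. In the *Gpsm3* line they were 1, but 4 by DESeq2 and 32 without a filter, and in the *Dok3* line 0, but 3 and 15. No paired analysis was possible because the replicate numbers only name samples in accession order and mark no litter, batch or day. *H2-Oa* had a median of 17 counts over all libraries but of 3.5 counts in *Nckap1l*-/- mice, which limits its precision mainly in that group. Treated and untreated mice cannot be separated in any group.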

Other observations

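Relative to *H2-Ab1*, the level of the inhibitor chain *H2-Ob* covered a wide range. The CPM of *H2-Ob* over that of *H2-Ab1* had a median of 0.0785 in the wild-type and 0.00665 in the *Nckap1l*-/- mice, 0.105 and 0.0580 in the *Dock2* line, 0.0976 and 0.106 in the *Gpsm3* line, and 0.132 and 0.112 in the *Dok3* line. For *Ciita* over *H2-Ab1* the medians were 0.193 and 0.158 for *Nckap1l*, 0.235 and 0.211 for *Dock2*, 0.270 and 0.269 for *Gpsm3*, and 0.283 and 0.274 for *Dok3*. These ratios are of CPM without regard to gene length and carry no test.

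The *Nckap1l*-/- mouse with the highest *H2-Ab1* of the series, at 336 CPM, had 60.8 CPM of *H2-DMb1*, 2.39 of *H2-DMb2*, 0.895 of *H2-Ob* and 6.57 summed CPM of the B cell markers. The wild-type mouse of the same line with the highest *H2-Ob*, at 52.1 CPM, had 228 CPM of *H2-Ab1*, 26.04 of *H2-DMb1* and 42.3 of *H2-DMb2*. Both mice were singled out after their values were seen.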
